A study of Arabidopsis thaliana with 7 samples.

Results

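The genes described here are 41 dim nuclear genes of Arabidopsis thaliana whose levels were lower on the arrays of exposed plants in each of 3 lines. The exposure was to CdS QDs, quantum dots of cadmium sulfide, which are semiconductor particles of nanometre size. The 41 genes were chosen by their measured values, from 13270 nuclear genes that the platform annotation tied to a probe set, with 1 probe set per gene. The annotation listed 14016 of the 22810 probe sets, so the other probe sets were not screened. The highest of the 7 arrays had to reach log2 4 and stay below log2 6, and the level at 80 mg/L had to lie at least 1 below the level at 0 mg/L in WT, in atnp01 and in atnp02. The brightness window held 3507 genes, so the 41 make up 1.17% of it. A log2 difference of 1 is 2-fold if the deposited values are plain log2 signals.

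The study measured seedlings of accession Ler-0 on Affymetrix ATH1 arrays, 1 array for each of 7 groups. WT was sampled at 0, 40 and 80 mg/L CdS QDs, and the mutants atnp01 and atnp02, which were selected for tolerance of CdS QDs, at 0 and 80 mg/L. All plants had 14 days on Murashige and Skoog medium and then 21 days on medium with the given dose, with a photoperiod of 16 h at 24 °C and a relative humidity of 30%. The labels give 80 mg/L as the minimum inhibitory concentration for WT and 40 mg/L as 1/2 of it. The sources used here do not give the loci disrupted in the mutants or the number of plants behind each array. With 1 array per group, no difference between a pair of arrays carries an error estimate, and in whole seedlings fewer cells of a type and less RNA per cell cannot be told apart.

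From general knowledge, 9 of the 41 genes were placed in cell wall families and 7 in surface and lipid families. How many genes of the window belong to such families was not counted. Plant cells grow by loosening and rebuilding a wall of cellulose, hemicelluloses such as xyloglucan and glucomannan, and pectin. Pectin methylesterases and pectate lyases act on pectin, class III peroxidases can cross-link or loosen wall polymers, and secreted lipid transfer proteins and GDSL lipases are known from cuticle and suberin formation. Growth is also set by auxin, whose Aux/IAA proteins repress the response, and by RALF peptides, which signal through receptor kinases at the wall. Families were assigned after the genes were listed, because the files name genes only by symbol or locus code. For 31 of the 41 genes the symbol is the locus code itself, and 1 of the 41, AT2G04460, is annotated as a pseudogene. Neither count was made for the window.

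All 41 genes were read on probe sets with a plain _at suffix, the type designed to match 1 gene. The unexposed levels were moderate for this window, with a WT median of 4.85, an atnp01 median of 4.66 and an atnp02 median of 4.90, against 4.70, 4.71 and 4.67 for all genes of the window. At 80 mg/L the medians were 3.28, 2.95 and 3.03. Of the 287 values of these genes, 21 in 9 genes lay below log2 2, where a difference has no exact size, and 54 were repeated by another probe set of the same array. The 9 genes were AT2G04460, AT2G48130, AT3G01190, AT3G14760, AT3G25930, AT3G26470, AT3G45710, AT4G28780 and IAA29. The lower quartiles of the arrays lay between 1.29 and 1.36.

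The differences between 80 and 0 mg/L that chose the genes ranged from -2.84 to -1.03 in WT, with a median of -1.48. They ranged from -2.74 to -1.07 with a median of -1.68 in atnp01, and from -2.76 to -1.01 with a median of -1.76 in atnp02. The medians of all genes in the window were 0.00, -0.02 and 0.00. A difference of -1 or lower was found for 2.22% of the window in WT, 3.62% in atnp01 and 3.34% in atnp02. These values describe the choice and support nothing by themselves. Close to the threshold, SCPL27 was just inside with a difference of -1.01 in atnp02, and AT3G16800 with -1.03 in WT. AT5G57760 was just outside with -0.997 in WT and AT5G09480 with -0.973 in atnp01. At the edges of the brightness window, the highest value of AT2G48130 was 4.003 and that of AT3G16800 was 5.99. AT2G36690, at 3.86, was just too dim, and AT1G72230, at 6.004, just too bright.

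Spike-in controls moved in the same direction as these genes. The 24 probe sets of the poly-A controls, bacterial transcripts spiked into the RNA ahead of amplification, had mean differences at 80 mg/L of -0.40 (WT), -0.72 (atnp01) and -0.48 (atnp02). Their lowest differences were -0.80, -1.38 and -0.97, and all 41 genes lay below that in WT and atnp02 and 34 of them in atnp01. In WT and atnp02 the choice fixed this count in advance, because its limit of -1 lies below those controls. In atnp01 the count rests on differences that the choice required to be -1 or lower. It was not made for the window. The 4 poly-A probe sets within the brightness window differed by means of -0.48, -0.66 and -0.64. Controls added at hybridization differed by means of -0.10, -0.16 and -0.02. The part of the amplification step in the lower levels was not tested.

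**Figure D1:**
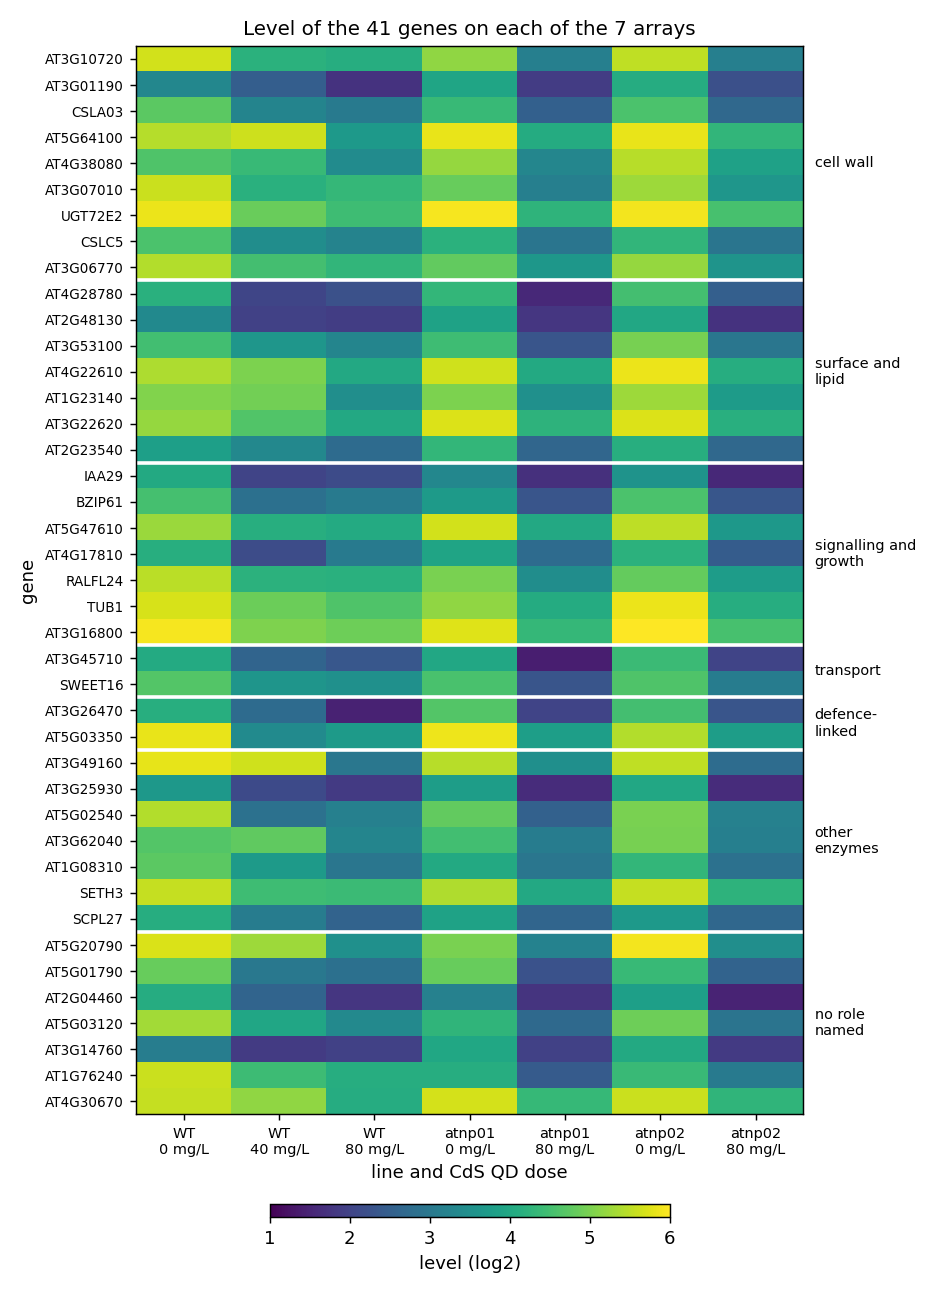
Levels (log2, colour) of the 41 genes, in rows grouped by role, on the 7 arrays, in columns by line and dose of CdS QDs. The highest array of every gene was one of the 3 unexposed arrays, and the rule left only WT at 40 mg/L as another possibility. WT at 40 mg/L took the lowest place for 2 genes.

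The WT array at 40 mg/L entered the choice only through the limits on the highest array and the mean that picks 1 probe set per gene, and each of the 41 genes had a single probe set. At 40 mg/L most of the 41 genes were nearer to their 80 mg/L than to their 0 mg/L level in WT. The difference between 40 and 0 mg/L had a median of -1.11 and ranged from -2.55 to 0.17, against a median of 0.00 for the window. It was -1 or lower for 26 of the 41 genes, or 63.4%, where 2.14% of the window was. This difference shares the unexposed WT array with the choice of the genes, which favours a high value on that array. Against the mean of the 3 unexposed arrays 21 genes were at -1 or lower, where 1.71% of the window was. Against the mean of the mutants' unexposed arrays 20 were, where 1.74% of the window was. The choice used those arrays too and favours high values on them.

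Taken as a share of the WT difference at 80 mg/L, the difference at 40 mg/L had a median of 81.8%, also over the 35 genes whose WT level at 80 mg/L was at log2 2 or above. For the other 6 genes this share has no exact size. The 40 mg/L level was nearer to the 80 mg/L than to the 0 mg/L level for 31 genes and nearer to 0 mg/L for 10. In 8 genes it was at or below the 80 mg/L level. It lay below all 3 unexposed arrays in 36 genes, or 87.8%, where 36.7% of the window did. The choice favours high values on those arrays. For 28 genes the 40 mg/L level lay above all 3 of the 80 mg/L arrays and below all 3 unexposed arrays. The counts of 31, 10, 8 and 28 genes were not made for the window. They rest on 0 and 80 mg/L arrays that the choice used. The 5 genes whose 40 mg/L level lay within the unexposed range were AT5G64100, AT3G62040, AT3G49160, AT5G20790 and AT1G76240.

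**Figure D2:**
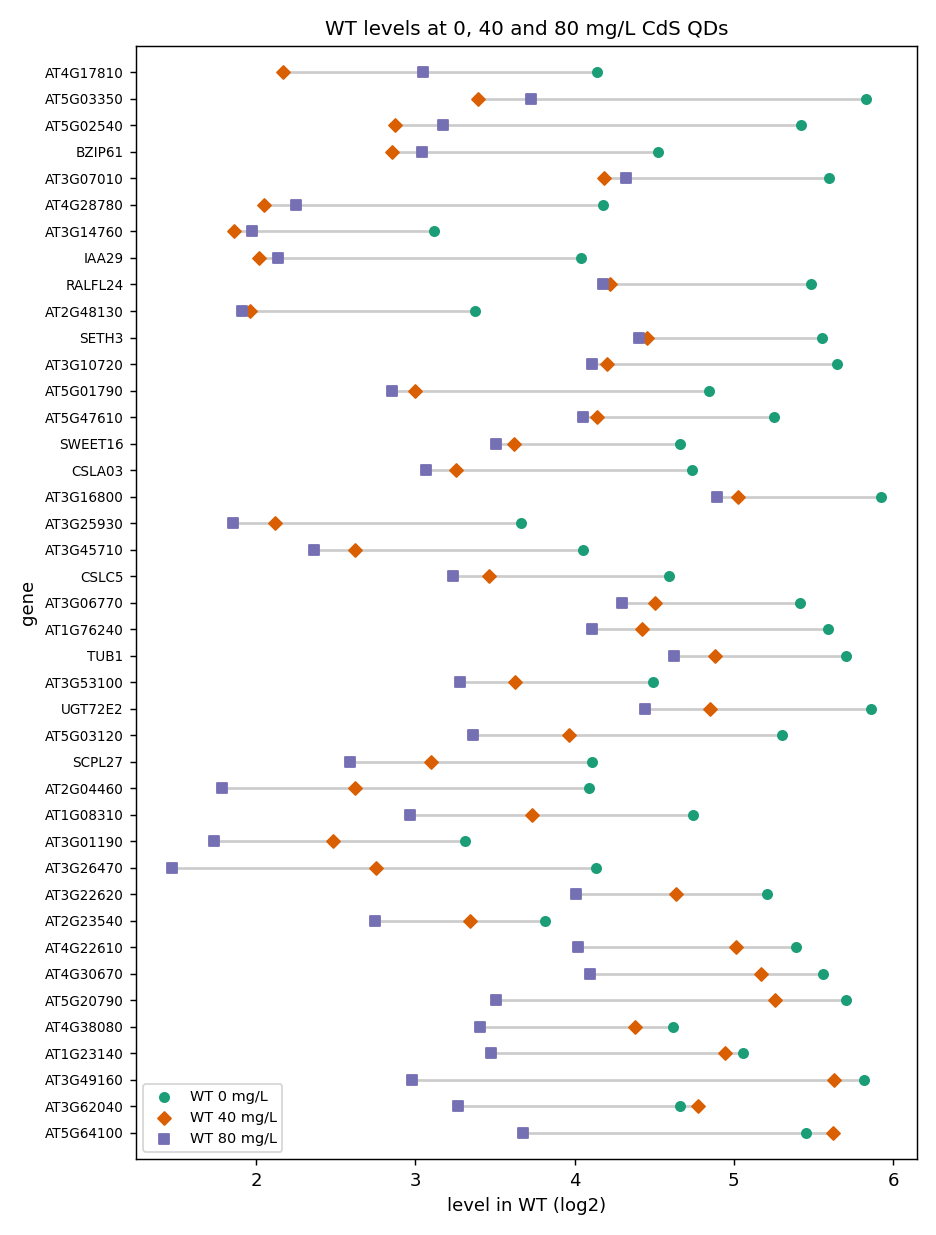
Levels (log2) of the 41 genes in WT at 0 mg/L (circles), 40 mg/L (diamonds) and 80 mg/L (squares), 1 array each, ordered by the share of the 80 mg/L difference that was present at 40 mg/L. The 40 mg/L point sits nearer to the 80 mg/L point for 31 genes, and at the bottom of the plot it sits near or above the 0 mg/L point.

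The cell wall group held 9 genes, 5 of which were at least 1 lower at 40 mg/L. AT3G07010, of the pectate lyase family, was at 5.60 in WT without QDs, 4.18 at 40 mg/L and 4.32 at 80 mg/L, at 4.84 and 3.16 in atnp01 at 0 and 80 mg/L, and at 5.26 and 3.62 in atnp02. Its 40 mg/L level lay below its 80 mg/L level in WT. AT3G10720, of the pectin methylesterase family, stood at 5.65, 4.202 and 4.11 in WT at 0, 40 and 80 mg/L, and AT3G06770, of the pectin lyase fold, at 5.42, 4.50 and 4.299. The 3 pectin genes thus differed little between the exposed WT arrays.

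For hemicellulose, CSLA03, of the glucomannan synthase family, was at 4.74, 3.26 and 3.07 in WT at the rising doses. CSLC5, of the family that makes the glucan backbone of xyloglucan, was at 4.59, 3.46 and 3.24. Both had most of their 80 mg/L difference at 40 mg/L, 88.6% for CSLA03 and 83.6% for CSLC5. UGT72E2, which adds glucose to the lignin precursors coniferyl and sinapyl alcohol, was at 5.86, 4.85 and 4.44.

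The 2 class III peroxidase genes went apart at 40 mg/L. AT5G64100 had levels of 5.45, 5.62 and 3.68 in WT at 0, 40 and 80 mg/L, 5.84 and 4.08 in atnp01 and 5.84 and 4.295 in atnp02. Its 40 mg/L level lay within the range of the unexposed arrays. AT3G01190 was at 3.31, 2.48 and 1.74 in WT, lower at 40 mg/L than on every unexposed array and near background at 80 mg/L. AT4G38080, of the hydroxyproline-rich glycoproteins, was also still high at 40 mg/L, with 4.62, 4.38 and 3.41.

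Of the 7 genes of surface and lipid families, 2 were at least 1 lower at 40 mg/L, and the median difference was -0.57. The GDSL lipase gene AT4G28780 was at 4.18, 2.05 and 2.25 in WT at 0, 40 and 80 mg/L, 4.303 and 1.57 in atnp01 and 4.50 and 2.51 in atnp02. The other GDSL genes were intermediate at 40 mg/L, AT3G53100 with 4.49, 3.63 and 3.28 and AT2G23540 with 3.81, 3.34 and 2.75. All 3 GDSL genes were below their unexposed arrays at 40 mg/L, and AT4G28780 differed the most from unexposed WT, by -2.13.

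Among the lipid transfer protein genes, AT2G48130 was at 3.37, 1.96 and 1.91 in WT, with both exposed values near background. AT3G22620, at 5.21, 4.64 and 4.01, and AT4G22610, at 5.39, 5.01 and 4.02, were nearer to the 0 mg/L than to the 80 mg/L level at 40 mg/L. AT1G23140, of a C2-domain family that binds lipids, was at 5.06, 4.94 and 3.48 in WT, 5.01 and 3.51 in atnp01 and 5.27 and 3.74 in atnp02. Its level at 40 mg/L was below all unexposed arrays, but by less than 0.1 below the lowest of them, that of atnp01. The responses of AT1G23140 at 80 mg/L were close in the 3 lines, from -1.58 to -1.50.

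The 7 genes of signalling and growth were lower at 40 mg/L with a median difference of -1.27, and 5 of them by at least 1. IAA29, an Aux/IAA repressor, was at 4.04, 2.02 and 2.14 in WT at 0, 40 and 80 mg/L, 3.31 and 1.69 in atnp01 and 3.57 and 1.57 in atnp02. The transcription factor gene BZIP61 was at 4.53, 2.85 and 3.04 in WT, 3.73 and 2.33 in atnp01 and 4.58 and 2.34 in atnp02. Both were a little lower at 40 than at 80 mg/L in WT. The zinc finger gene AT4G17810 was at 4.14, 2.17 and 3.05 in WT, and its 40 mg/L level was the lowest of its 7 arrays.

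RALFL24, a RALF peptide gene, was at 5.49, 4.22 and 4.18 in WT at the 3 doses, and the RING finger gene AT5G47610 at 5.25, 4.14 and 4.05. The beta-tubulin gene TUB1 was at 5.70, 4.88 and 4.63. AT3G16800, of the protein phosphatases 2C, was at 5.92, 5.02 and 4.90. Among RALFL24, AT5G47610, TUB1 and AT3G16800, the share of the 80 mg/L difference present at 40 mg/L ranged from 76.3% in TUB1 to 97.1% in RALFL24.

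Of the transport genes, AT3G45710, of the nitrate and peptide transporter family, was at 4.05, 2.62 and 2.36 in WT, 4.004 and 1.41 in atnp01 and 4.41 and 2.03 in atnp02. SWEET16, a sugar transporter of the vacuole membrane, was at 4.66, 3.62 and 3.505 in WT. Both were lower by at least 1 at 40 mg/L.

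Among the defence-linked genes, AT5G03350, of the legume lectin family, was at 5.83, 3.39 and 3.73 in WT at 0, 40 and 80 mg/L, 5.87 and 3.799 in atnp01 and 5.43 and 3.79 in atnp02. Its 40 mg/L level was the lowest of the 7 arrays. AT3G26470, which has the RPW8 domain known from powdery mildew resistance, was at 4.14, 2.76 and 1.47 in WT, 4.66 and 2.02 in atnp01 and 4.51 and 2.32 in atnp02. At 40 mg/L it was below every unexposed array and above every 80 mg/L array, of which that of WT was near background.

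Of 7 other enzyme genes, 5 were at least 1 lower at 40 mg/L. AT3G49160, of the pyruvate kinase family, had the lowest mean difference over the 3 lines, -2.52. It was at 5.82, 5.63 and 2.98 in WT at 0, 40 and 80 mg/L, 5.47 and 3.497 in atnp01 and 5.52 and 2.76 in atnp02, so that the 40 mg/L level lay within the unexposed range. AT3G62040, a haloacid dehalogenase-like hydrolase, shared this pattern, with 4.66, 4.78 and 3.27 in WT, 4.49 and 3.09 in atnp01 and 4.97 and 3.15 in atnp02.

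The short-chain dehydrogenase gene AT5G02540 had the lowest difference at 40 mg/L, -2.55. It was at 5.42, 2.87 and 3.17 in WT, 4.801 and 2.55 in atnp01 and 4.99 and 3.21 in atnp02. AT3G25930, of the universal stress protein family, was at 3.66, 2.12 and 1.85 in WT, 3.78 and 1.63 in atnp01 and 4.01 and 1.63 in atnp02. These differences rest on exposed values near background for AT3G25930 and not for AT5G02540. SETH3, a sugar isomerase domain gene, was at 5.55, 4.45 and 4.40 in WT, the serine carboxypeptidase-like gene SCPL27 at 4.11, 3.098 and 2.59, and AT1G08310, an alpha/beta hydrolase, at 4.74, 3.73 and 2.97.

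No role is named here for 7 genes. AT5G20790 was at 5.71, 5.26 and 3.504 in WT at 0, 40 and 80 mg/L, 5.003 and 3.22 in atnp01 and 5.92 and 3.47 in atnp02. AT5G01790 was at 4.85, 3.001 and 2.85 in WT, 4.84 and 2.25 in atnp01 and 4.36 and 2.58 in atnp02. The first was still within the unexposed range at 40 mg/L, and the second was near its 80 mg/L level. AT5G03120 was at 5.30, 3.96 and 3.36 in WT, 4.26 and 2.71 in atnp01 and 4.90 and 2.93 in atnp02. AT4G30670, at 5.56, 5.17 and 4.099 in WT, had 26.6% of its 80 mg/L difference at 40 mg/L. AT3G14760, at 3.12, 1.86 and 1.97, and the pseudogene AT2G04460, at 4.09, 2.62 and 1.78, were at least 1 lower at 40 mg/L. Near background were both exposed WT values of AT3G14760 and the 80 mg/L value of AT2G04460.

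Between 40 and 80 mg/L, 7 of the 41 WT levels differed by -1 or lower, or 17.1%, against 0.77% of the window. They were those of AT3G49160 (-2.65), AT5G64100 (-1.95), AT5G20790 (-1.76), AT3G62040 (-1.51), AT1G23140 (-1.47), AT3G26470 (-1.29) and AT4G30670 (-1.07). The 80 mg/L array was used in the choice, which favours a low value on it. In the other direction, AT4G17810 was 0.88 higher at 80 than at 40 mg/L. For the poly-A controls the mean WT difference at 40 mg/L was -0.33, with -0.68 as the lowest, and 31 of the 41 genes lay below that lowest value. The window's share below it was not counted, and the difference uses the unexposed WT array of the choice. What part the shift of these controls had in the 40 mg/L levels was not tested.

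Of the 41 genes, 1 passed a test between lines. AT1G76240, for which no role is named here, was at 5.59, 4.42 and 4.11 in WT at 0, 40 and 80 mg/L, at 4.12 and 2.44 in atnp01 and at 4.39 and 3.03 in atnp02. Both mutants were lower than WT at either dose, and without QDs they stood near the level of exposed WT. Over both doses the atnp01 level was lower than that of WT by a limma coefficient of -1.57 (SE 0.15, adjusted p = 0.0165), and the atnp02 coefficient was -1.14 (SE 0.15, adjusted p = 0.113). The first was no longer past the threshold (adjusted p = 0.106) when only genes reaching log2 5 were tested. Its responses to 80 mg/L, -1.48 in WT, -1.68 in atnp01 and -1.36 in atnp02, spanned 0.32 between the highest and lowest line.

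The fit used line and dose as terms on the 6 arrays at 0 and 80 mg/L, and its error, with 2 residual degrees of freedom, is the spread of the response among lines. In this balanced set the line coefficients are not part of the contrast that chose the genes, but the error is built from the responses that chose them, so the p-values of the 41 genes are not independent of the choice. Of the 41 genes, 1 was lower and 0 were higher in atnp01 than in WT at an adjusted p under 0.05, where 0.196% and 0.107% of the 5598 genes tested were. No gene of the 41 was lower or higher in atnp02 than in WT, against 0.0179% and 0.0357%, or in atnp02 than in atnp01, against 0.0179% each. At an unadjusted p under 0.05 in limma, 16 of the 41 genes passed for atnp01 against WT, 9 for atnp02 against WT and 6 between the mutants. Of all 5598 genes tested, 528, 370 and 440 did.

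Next to AT1G76240 in size came AT3G07010 at -0.96 (limma adjusted p = 0.0534), AT5G03120 at -0.85 (adjusted p = 0.163) and BZIP61 at -0.75 (adjusted p = 0.428), all in atnp01 against WT and none past the threshold. AT3G07010 passed after quantile normalization (adjusted p = 0.0439) and after cyclic loess (adjusted p = 0.0472). The median coefficient of the 41 genes was -0.28 for atnp01 and -0.14 for atnp02, against 0.02 and -0.02 for all genes tested.

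In single pairs of arrays, atnp01 was at least 1 below WT for 2 of the 41 genes without QDs, AT1G76240 (-1.47) and AT5G03120 (-1.04), against 0.371% of the window. At 80 mg/L it was so for 3, AT1G76240 (-1.67), SWEET16 (-1.19) and AT3G07010 (-1.16), against 0.912%. In atnp02 AT1G76240 was the 1 such gene at both doses, at -1.201 and -1.08, against 0.171% and 0.456%. None of the 41 genes was at least 1 above WT in either mutant, where 0.257% of the window was in atnp01 and 0.057% in atnp02 without QDs, and 0.713% in each mutant at 80 mg/L. At 80 mg/L, 26 of the 41 genes were lower in both mutants than in WT and 9 higher in both, against 38.5% and 32.6% of the window. Without QDs the numbers were 16 and 14, against 30.2% and 29.9% of the window. None of these single-array differences was tested.

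**Figure D3:**
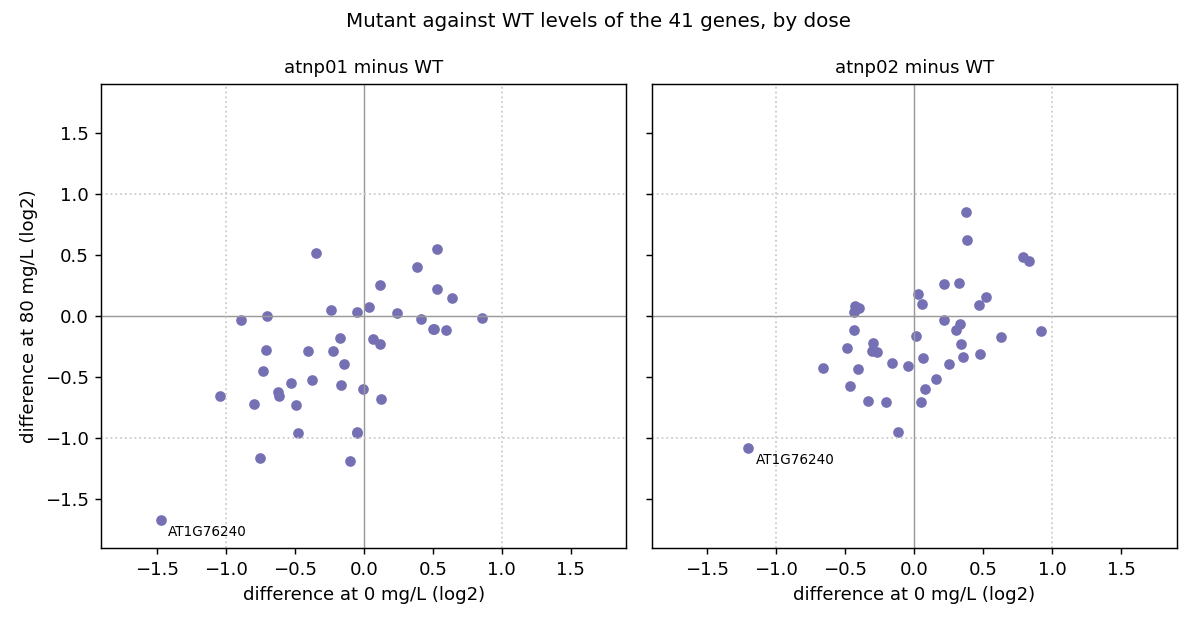
Difference (log2) between each mutant and WT at 0 mg/L (horizontal) and at 80 mg/L (vertical) for the 41 genes, 1 array per group, with dotted lines at a difference of 1. AT1G76240 stands apart at -1.47 and -1.67 in atnp01 and at -1.201 and -1.08 in atnp02.

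The smallest of the 3 responses to 80 mg/L was that of WT in 22 genes, of atnp01 in 9 and of atnp02 in 10. SWEET16 had responses as far apart as -1.16 in WT and -2.24 in atnp01. AT1G23140, CSLC5 and AT4G30670 had the narrowest, 0.08, 0.12 and 0.15 between the highest and lowest line. These responses chose the genes and are given as a description.

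The 41 genes were unevenly spread over the chromosomes, a feature noticed after the genes were listed and not tested. Chromosome 3 held 18 of them, or 43.9%, against 21.2% of the genes in the window. Chromosomes 1, 2, 4 and 5 held 5, 3, 7 and 8. Put the other way, 2.42% of the window's genes on chromosome 3 met the rule, and 0.525%, 0.621%, 1.43% and 0.957% on chromosomes 1, 2, 4 and 5. Of 83 genes in the same window that were at least 1 higher at 80 mg/L in all lines, 19 lay on chromosome 3, and of 42 brighter genes that were at least 1 lower in all lines, 4 did. With thresholds of -0.8 and -1.2 the share on chromosome 3 was 36.1% of 72 genes and 37.9% of 29, and with a brightness window up to log2 7 it was 29.7% of 64.

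**Figure D4:**
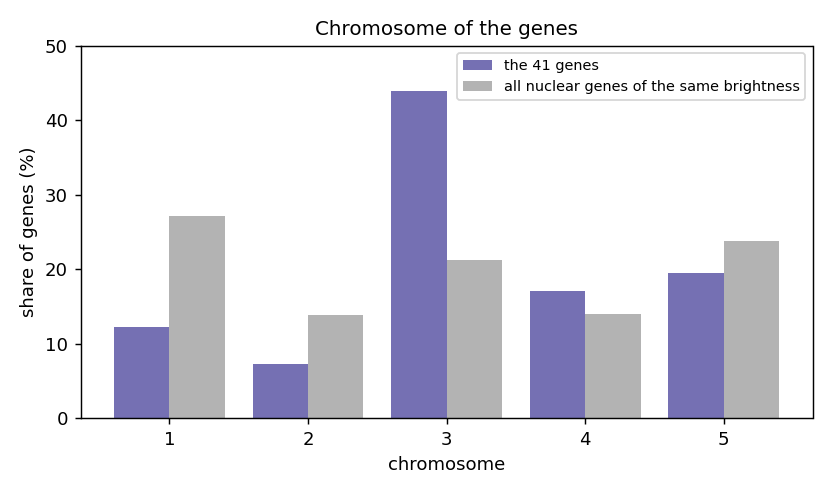
Share (%) of the 41 genes and of all 3507 nuclear genes of the same brightness on each chromosome. Chromosome 3 holds 43.9% of the 41 genes and 21.2% of the window.

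Pathway lists gave little coverage of these genes, and most of their entries were not on the annotation. Of 419 entries in 20 lists of hormone, wall, cuticle, metal, nitrogen, light and organ genes, 57 were on the annotation and 35 reached log2 4 on some array. Of these, 5 were at least 1 lower in all 3 lines and 2 higher, where 1.48% and 2.93% of the 5598 nuclear genes reaching log2 4 were. Of the 41 genes, 1 was on a list, IAA29. With so few entries annotated, this count says little about the 41 genes. In its auxin list 8 of 31 entries were annotated and 4 reached log2 4, with a median mean difference of -0.36 against -0.03 for all genes, and no other entry was at least 1 lower or higher in all lines. In the list of primary wall genes 7 of 10 annotated genes reached log2 4, with a median of -0.91, and EXPA8, an expansin, was the 1 lower in all lines. Other lists had medians of either sign. Negative were copper and zinc at -2.73 (1 gene), glucosinolates at -1.36 (5 genes) and photosynthesis at -0.31 (7 genes). CCS of the copper list and AOP3 and GSTU20 of the glucosinolate list were at least 1 lower in all lines. Positive medians were 2.98 for iron (1 gene), 1.86 for cuticle and wax (2 genes), 1.14 for flavonoids (2 genes) and 0.89 for gibberellin (2 genes). Those for flower, secondary wall, and clock and light genes were 0.64, 0.06 and 0.02. BHLH101 (iron) and DFR (flavonoids) were at least 1 higher in all lines. Both cuticle genes had higher means at 80 mg/L, by 1.74 for the wax ester synthase gene WSD1 and by 1.98 for AT5G33370, and in atnp01 both differed by less than 1.

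As a check of the tissue, 7 photosynthesis genes on the annotation were read at up to 11.61 in unexposed WT. None of the annotated root hair genes (2), stomatal and trichome genes (3), anther genes (2) or cell cycle genes (2) reached log2 4 on any array, and endodermis genes had no annotated member. Of flower genes 1 was annotated, AGL24, at 4.005 in unexposed WT and 4.90 at 40 mg/L. Whether the organs' share of the seedlings changed with exposure was not tested.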

How the data were processed

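The 7 samples were seedlings hybridized to ATH1 arrays, from 0.1 g of plant material, 100 ng of total RNA and 15 µg of labelled aRNA, per the labels' protocols. The submitters' processing notes name RMA and version 1.1 of Affymetrix Expression Console, and the deposited table holds 1 log2 value per probe set and array. Further steps of the authors are not stated in those notes.

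The deposited table held 22810 probe sets, 64 of them controls, and the platform annotation listed 14016. It paired 13513 probe sets with 1 gene and 503 with several, which were left out. Gene identifiers matched the TAIR10.1 gene table for 13436, locus codes or symbols for 72, and 5 had no match. Where a gene had several probe sets, that with the highest mean over the 7 arrays was kept. Differences between single arrays were counted at 1 log2 unit, with no p-value. Line effects came from limma 3.58.1 (R 4.3.3) on nuclear genes whose highest array reached log2 4, with a trend on intensity, and p-values were adjusted by Benjamini-Hochberg over all 5598 genes and called at 0.05. This test was tried on simulated data with known line effects. Alternatives were other normalizations, thresholds, brightness windows, floors and sets of lines. Counts and differences were computed with pandas 2.3.3 (Python 3.11.15). Precision is limited by the number of arrays.

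The members and lists were chosen with earlier results of these data known. Every gene of the set was named. All 7 values were given for the 8 with the lowest mean difference at 80 mg/L, the 4 highest and the 4 lowest at 40 mg/L, and the 4 with the largest line effects. Roles were assigned after the genes were listed, and planned promoter motifs were not searched.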

Additional observations from a re-analysis of the deposited data

How the results depend on the processing

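No pairing by replicate was possible because the labels give no replicate numbers and each group has 1 array, so no replicate block could be added. For the line effects, the dose term of the limma fit matched arrays of the same dose across lines. The number of genes meeting the rule moved from 41 to 72 with a threshold of -0.8, to 64 with a brightness window up to log2 7 and to 71 without the WT line, all of which hold the 41 by construction, as they widen the rule. After quantile normalization, cyclic loess and centring on the median of nuclear genes, 44, 39 and 46 genes met it, and 40, 38 and 40 of these were among the 41. The number of genes at least 1 lower at 40 mg/L, 26, was 26, 24 and 26 after these normalizations. Against the mean of the 3 unexposed arrays it was 21, and against that of the mutants' unexposed arrays 20. With thresholds of -0.8 and -1.2 in place of -1, the count was 31 and 18. The counts of genes at least 1 apart between a mutant and WT were small and moved with the threshold. At 0.8 they were 4 and 6 in atnp01 at 0 and 80 mg/L and 3 and 3 in atnp02, and at 1.2 they were 1 and 1 in atnp01 and 1 and 0 in atnp02. For atnp01 against WT, limma called 0 of the 41 genes with a floor of log2 5, where 21 of them were tested, and 2 after quantile normalization or cyclic loess, the second being AT3G07010. For atnp02 against WT and between the mutants it called 0 in every alternative run. After cyclic loess 2 of the 41 genes fell under the floor of log2 4 and were not tested. Dim values near log2 2 limit the size of the differences in 9 genes.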
